A study of Drosophila melanogaster and Drosophila mauritiana and Drosophila simulans with 22 samples.

Results

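Testes of hybrid males with a Drosophila simulans mother and a Drosophila melanogaster father were compared with testes of the father's species. The 3 arrays titled as hybrid simulans x melanogaster testes and the 3 titled as D. melanogaster testes were taken, 6 of the 22 arrays of the series, by their titles alone. Genes measured on 2 or more arrays of both groups were tested, which were 6781 of the 6793 genes with a single gene symbol in the probe table. The hybrids came from vials of 10 D. simulans females of strain 14021-0251.2 and 15 D. melanogaster males of strain 14021-0231.00, and the melanogaster testes came from males of strain 14021-0231.00. In both groups testes without accessory glands were taken from 4 day old males kept at 25 °C, and each array carried amplified RNA of a pool of 200 testes. The other channel of every array held RNA of whole D. melanogaster males of the fathers' strain, so a level below is the log2 of testes over whole males, centred on the array's median. A level of 0 is the median of the array, and a difference of 1 between levels is a 2-fold difference. Levels in testes of D. simulans strain 14021-0251.2, the mothers' species, are given beside some genes from 3 further arrays prepared in the same way.

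In the Drosophila testis, germline stem cells at the tip divide into spermatogonia, which become spermatocytes, pass through meiosis and differentiate as spermatids into sperm with long tails. Spermatocytes switch on a large testis-specific program through the tMAC and tTAF complexes, and much of what the spermatids use is transcribed before meiosis and stored. Many general machines, among them the proteasome, the respiratory chain and the translation apparatus, have extra gene copies that are used mainly in the male germline. Sons of D. simulans mothers and D. melanogaster fathers carry the X chromosome of D. simulans, an autosome set of each species and the Y chromosome of D. melanogaster, and they are sterile.

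Across genes, which are no independent replicates, the hybrid arrays correlated with each other at r of 0.84 to 0.90 and with the melanogaster arrays at only 0.09 to 0.14. Melanogaster arrays 1 and 2 correlated at 0.97 and differed by only 1.36 times the noise of their duplicate spots, while array 3 differed from them by 3.53 and 3.41 times. The pairs of hybrid arrays differed by 1.62 to 1.73 times, not far above the 1.36 of melanogaster arrays 1 and 2. Melanogaster arrays 1 and 2 may be repeat runs of a shared RNA, which the labels do not say and these values cannot decide. In that case n is 2 in melanogaster and the p-values are too small. With both averaged, 2354 genes were called in place of 2971. Array 3 alone held a value for all 27648 rows, and the other 5 held 24457 to 26790. The number of arrays limits the precision, and the samples are called independent replicates without a statement of what was repeated. In whole testes, fewer cells of a type and less RNA per cell cannot be told apart. The probes carry D. melanogaster sequence, so a lower signal of simulans transcripts and a lower level of them cannot be told apart either.

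At a Benjamini-Hochberg adjusted p under 0.05 in limma, 2971 of 6781 genes differed between hybrid and melanogaster testes, 43.8 percent of those tested. Of these, 1560 genes (23 percent of those tested) were lower and 1411 (20.8 percent) higher in the hybrid. Every count of called genes in a list below is to be read beside these shares. The lower calls were the larger ones, with a median log2 difference of -1.79 against 1.17 for the higher calls. Differences of 16-fold or more were found for 180 genes that were lower and 19 that were higher, and those of 64-fold or more for 17 and 2. The median difference over all genes tested was 0.19, and without centring it was -0.01, with 1599 genes lower and 789 higher. Over the genes tested, 53.6 percent had hybrid and melanogaster values that did not overlap.

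**Figure D1:**
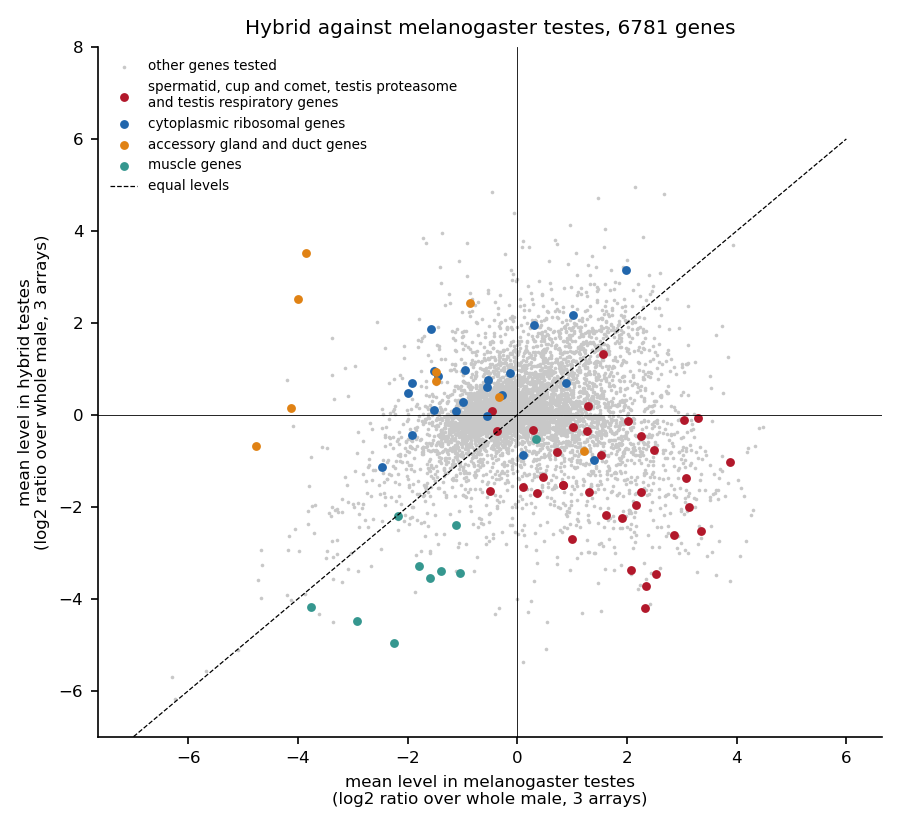
Mean level of each of 6781 genes in melanogaster testes (horizontal, log2 ratio to whole males, 3 arrays) and in hybrid testes (vertical, same unit, 3 arrays), with the dashed line at equal levels. Spermatid, cup and comet, testis proteasome and testis respiratory genes lie mostly to the right of and far below the line, while ribosomal and most accessory gland genes lie above it.

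Genes far from the array median in melanogaster testes were followed to the hybrid arrays. There were 1048 genes with a level over 1 on every melanogaster array that had a value. Of them, 186 were under -1 on every hybrid array, 163 were over 1 on every hybrid array, and the rest met neither bound. In the other direction, 458 genes were under -1 on every melanogaster array, of which 137 were also under -1 and 19 over 1 on every hybrid array. The genes were picked by their melanogaster values, which also enter the difference, so these counts only describe levels and support no direction.

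The genes were also sorted by their level on the 3 simulans arrays, which the comparison did not use. Of 211 genes with a mean simulans level over 2, 178 were lower in the hybrid than in melanogaster and 2 higher, with a median difference of -3.42. Of 805 genes between 1 and 2 in simulans, 452 were lower and 55 higher. At the other end, 69 of 110 genes at -2 or below in simulans were higher in the hybrid and 2 were lower, with a median difference of 1.23. In that class the median level was -2.99 in melanogaster and -1.68 in the hybrid, and in the class over 2 it was 2.66 in melanogaster and -0.78 in the hybrid.

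**Figure D2:**
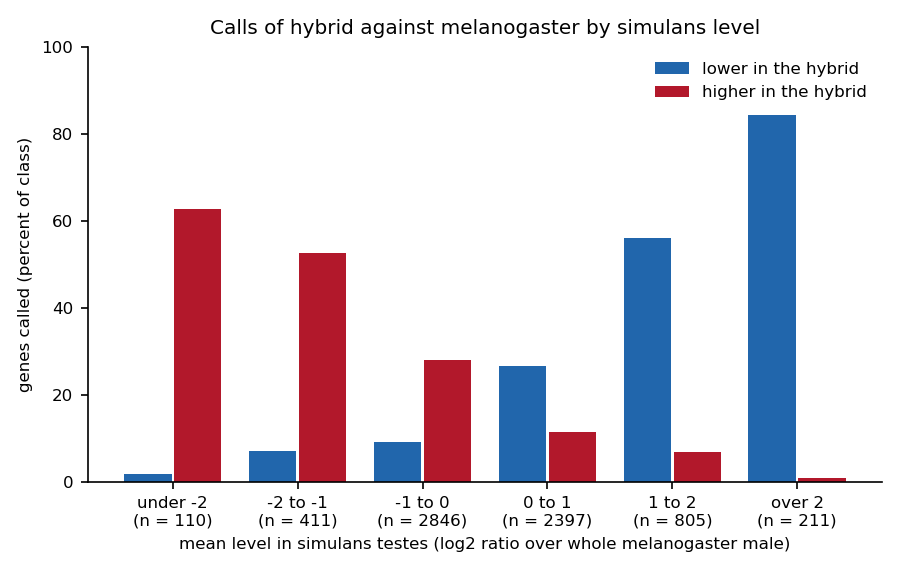
Share of genes called lower (blue) or higher (red) in hybrid than in melanogaster testes (vertical, percent of the class) by the mean level of the gene in simulans testes (horizontal, log2 ratio to whole males, number of genes under each class). The lower share runs from 1.82 percent in the lowest class to 84.4 percent in the highest, and the higher share from 62.7 to 0.948 percent.

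The 12 lowest genes were nearly all known only by CG numbers in the probe table. CG4218 read -3.48, -3.65 and -3.68 on the hybrid arrays and 3.16, 3.77 and 4.72 on the melanogaster arrays. The groups lay far apart, and the difference was -7.49 ± 0.35 (SE, n = 3 arrays a group, limma adjusted p = 8.92e-09), a 179-fold lower ratio. CG8517 (-7.13 ± 0.28), CG17470 (-7.10 ± 0.29) and CG1690 (-6.91 ± 0.27) followed, all between -3.75 and -2.45 on the hybrid arrays and between 3.36 and 4.48 on the melanogaster arrays. The rest of the 12 were CG13168, CG30039, CG17377, scpr-C, CG17567, CG15177, eIF4E5 and CG10934, with differences of -6.69 to -6.37. In simulans testes CG4218 read 3.50, 3.60 and 3.40, so that the hybrid lay below both species. The 2 named genes among them belong to families treated below.

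Genes of spermatids and sperm tails were among the lowest. Of 6 tested, 5 fell and 0 rose, with a median difference of -3.10 against 0.19 over all genes. The gene dj, or don juan, encodes a protein of the sperm tail and read -2.86, -3.48 and -3.77 in the hybrid and 2.04, 1.86 and 2.33 in melanogaster. Every hybrid level was negative and every melanogaster level positive, and the difference was -5.44 ± 0.29 (SE, n = 3, limma adjusted p = 2.04e-08), or 43.5-fold. In Mst87F, of a cysteine-rich sperm tail protein family, the levels were -3.81, -2.94 and -3.65 in the hybrid and 2.46, 2.35 and 2.75 in melanogaster. That is a difference of -5.99 ± 0.29, or 63.4-fold, again with no overlap. The testis gene ocn (-4.14 ± 0.30), Mst98Cb of the same family as Mst87F (-2.06 ± 0.32) and Mst77F, a chromatin protein of condensing sperm nuclei (-1.83 ± 0.26), fell as well. Mst77F read -1.66, -1.03 and -1.38 in the hybrid against 0.48, 0.41 and 0.53 in melanogaster. The sixth gene of the list, Saf6, is not established as a spermatid or sperm tail gene, and it did not pass (0.53 ± 0.29, adjusted p = 0.162). The count and the median of the list include it.

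Cup and comet genes are transcribed after meiosis, and their RNAs gather at the ends of the elongating spermatids. Of 12 genes tested in the list, 11 fell and 0 rose, with a median of -3.35, and f-cup did not pass (-1.09 ± 0.42, limma adjusted p = 0.0527). The count and the median include scpr-B and scpr-C, which are treated below. The levels of soti, an inhibitor of the ubiquitin ligase that acts when spermatids are individualised, were -2.41, -2.09 and -3.09 in the hybrid and 3.34, 3.41 and 3.30 in melanogaster. No arrays overlapped, with a difference of -5.88 ± 0.29 (58.9-fold, limma adjusted p = 1.33e-08). In simulans testes soti read 2.92, 2.99 and 2.44, close to melanogaster. The cup genes m-cup (-4.13 ± 0.29), r-cup (-1.62 ± 0.38), p-cup (-1.28 ± 0.36) and wa-cup (-1.16 ± 0.26) fell by very different amounts. The comet genes schuy and boly differed between the parent species as well. In schuy the levels were -2.46, -1.96 and -2.14 in the hybrid, 1.73, 1.77 and 1.35 in melanogaster and -0.91, -0.86 and -1.58 in simulans.

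The scpr genes, of a cysteine-rich secretory protein family, are near-identical copies whose probes may share signal, so their separate values are uncertain. All 3 fell, with differences of -6.53 ± 0.26 in scpr-C, -6.08 ± 0.29 in scpr-B and -2.99 ± 0.26 in scpr-A. The falls of scpr-C and scpr-B are already counted in the cup and comet list above. The levels of scpr-C were -4.27, -4.28 and -4.03 in the hybrid, 1.97, 2.43 and 2.60 in melanogaster and 2.99, 2.87 and 2.61 in simulans. The hybrid was thus low beside both species in this gene.

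**Figure D3:**
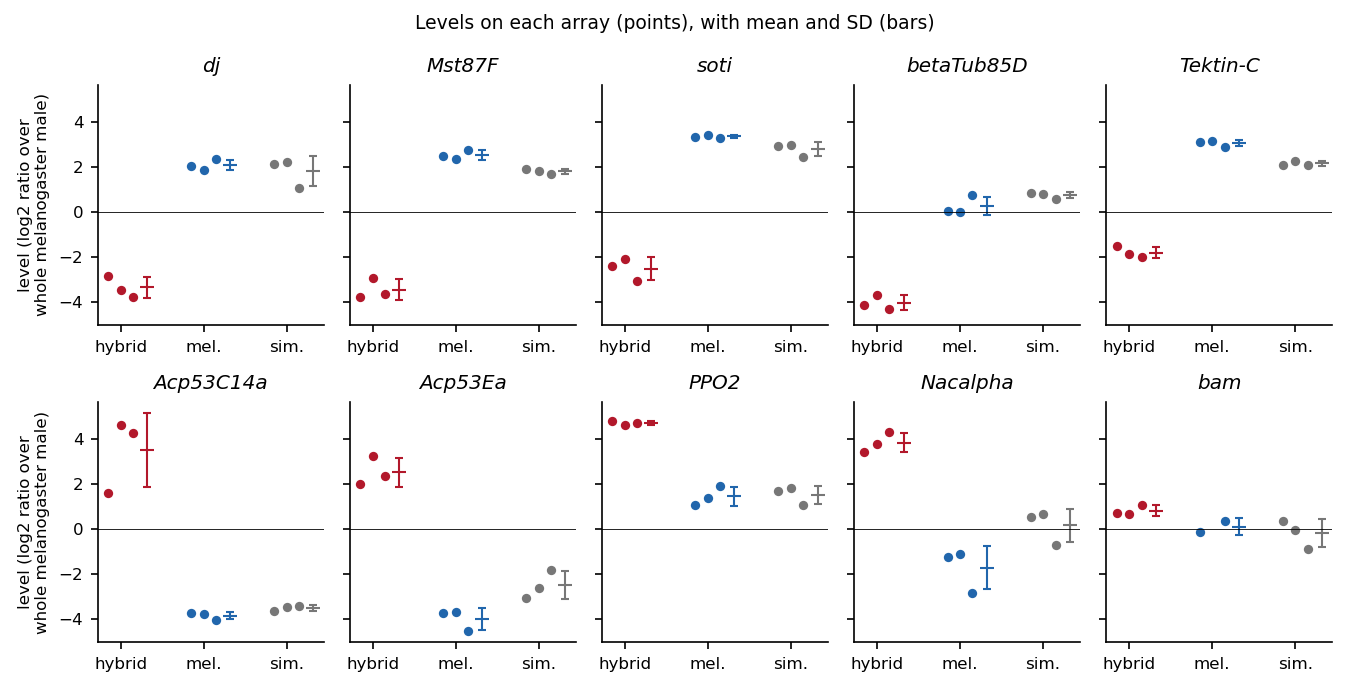
Level (vertical, log2 ratio to whole melanogaster males) of 10 genes on each array of hybrid (red), melanogaster (blue) and simulans (grey) testes, with the mean and the SD beside the points. The 5 spermatid and tail genes of the upper row are below 0 on every hybrid array, Acp53C14a, Acp53Ea, PPO2 and Nacalpha are higher there than on any array of either species, and bam did not pass the test.

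Sperm tail structure and movement showed a mixed picture of large falls and genes that did not pass. Among 23 genes of dyneins, kinesins and the axoneme, the microtubule core of the tail, 13 fell and 0 rose, with a median of -1.06. The dynein light chain gene Cdlc2 read -2.45, -2.24 and -2.59 in the hybrid and 3.53, 3.69 and 3.39 in melanogaster, a difference of -5.96 ± 0.25 (limma adjusted p = 6.84e-09). Both tektin genes, whose products lie along microtubule doublets, fell. Tektin-C read -1.54, -1.89 and -2.01 against 3.10, 3.15 and 2.89, a 29.1-fold difference without overlap, and Tektin-A had -4.18 ± 0.40. Of 8 kinesin genes 4 fell, with Klp10A, of a family that takes microtubules apart, at -3.16 ± 0.29. The dynein intermediate chain gene sw fell by 2.51 from levels of 0.18, -0.06 and -0.27 in melanogaster to -2.27, -2.30 and -3.10 in the hybrid. Its simulans levels were -2.02, -1.91 and -1.87, near those of the hybrid. Whether the probe of sw reads this gene alone was not tested.

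Of 4 tubulin genes 3 fell, against 23 percent over all genes. The tubulin of male meiotic spindles and sperm tails, betaTub85D, read -4.14, -3.68 and -4.31 in the hybrid and 0.05, -0.02 and 0.73 in melanogaster (-4.30 ± 0.29, limma adjusted p = 1.41e-07). The hybrid ratio was 19.6-fold lower, although the melanogaster level itself lay near the array median. The differences of betaTub60D and alphaTub85E, used in somatic cells, were -1.46 ± 0.25 and -1.28 ± 0.26. The general gene betaTub56D did not pass (0.21 ± 0.28, adjusted p = 0.551).

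Sperm leucyl aminopeptidases are abundant proteins of the sperm's mitochondrial derivatives, and all 3 tested fell. S-Lap8 read -3.02, -2.75 and -2.82 in the hybrid and 1.60, 1.43 and 1.68 in melanogaster, without overlap. Its difference was -4.43 ± 0.25, or 21.6-fold, and those of S-Lap5 and S-Lap7 were -3.04 ± 0.30 and -2.21 ± 0.37. Of 2 male-specific adenylyl cyclase genes, ACXC fell by 2.53, from 1.71, 1.73 and 1.68 in melanogaster to -0.94, -0.55 and -0.98. ACXD did not pass (0.25 ± 0.35, adjusted p = 0.575).

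Genes that act before the spermatid stage fell in part. Of 6 genes of spermatocyte transcription 5 fell, with a median of -1.01, and vis did not pass (-0.64 ± 0.38). The DNA-binding tMAC subunit gene topi read -0.30, -0.11 and -0.02 in the hybrid and 2.40, 2.48 and 2.72 in melanogaster (-2.67 ± 0.25, limma adjusted p = 1.96e-06). Its groups were well apart, and so were those of the tMAC subunit gene mip40 (-2.73 ± 0.27). The other tMAC genes comr and achi differed by -1.01 ± 0.27 and -0.99 ± 0.30. The gene kmg, which keeps genes of other tissues silent in spermatocytes, read -0.55, -0.30 and -0.03 against 0.72, 0.52 and 0.89.

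Of 9 male meiosis genes tested 5 fell and 0 rose, with a median of -1.66. The gene rux, whose product inhibits cyclin-dependent kinase in meiosis, read -0.27, -0.45 and -0.89 in the hybrid and 2.85, 2.75 and 2.69 in melanogaster. This difference of -3.30 ± 0.26 (limma adjusted p = 4.6e-07) had simulans levels of 1.42, 1.52 and 0.41 between the groups. The centromere cohesion gene mei-S332 (-3.19 ± 0.31), the lipid kinase gene fwd, needed for cytokinesis of spermatocytes (-2.95 ± 0.29), and twe, the phosphatase that starts meiotic division (-1.66 ± 0.29), fell too. The lowest gene of the list, eIF4G2 (-3.57 ± 0.31), is also counted among the translation factors below. The 4 genes that did not pass were CycB (-0.68 ± 0.28), pelo (-0.26 ± 0.25), tef (-0.07 ± 0.30) and SMC1 (0.09 ± 0.28). Levels of pelo, which male meiosis needs, were 1.51, 1.10 and 1.57 in the hybrid and 1.65, 1.77 and 1.54 in melanogaster.

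At the stem cell and spermatogonial stage, 0 of 6 genes passed in limma. The largest was bam, the switch from dividing spermatogonia to spermatocytes, with 0.73, 0.65 and 1.08 in the hybrid and -0.15 and 0.37 on the 2 melanogaster arrays that had a value. Its groups did not overlap, but the difference of 0.71 ± 0.31 had an adjusted p of 0.0805. It passed with the arrays scaled to a common spread, with quantile normalization and with array weights. Phf7, a male germline histone reader, had -0.65 ± 0.27 (adjusted p = 0.0704). It passed with array weights and without melanogaster array 3 (-0.85, adjusted p = 0.0116). Rbfox1, an RNA-binding factor of spermatogonial differentiation, had 0.54 ± 0.26 (adjusted p = 0.111). The spot pairs of Rbfox1 disagreed, with differences of -0.24, 0.32 and 1.55. The germline gap junction gene zpg (0.36 ± 0.34), stwl (0.29 ± 0.34) and otu (0.20 ± 0.34) had errors about as large as the difference. With array weights, zpg and otu passed too. The median of the list was 0.33. Without melanogaster array 1 or 3 only 3 of the 6 genes could be tested, since bam, zpg and otu lacked a value on melanogaster array 2.

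Among 3 somatic genes of the testis, puc, a phosphatase of JNK signalling, rose, with 0.51, 1.38 and 1.64 in the hybrid and -0.01, -0.07 and -0.02 in melanogaster (1.21 ± 0.31, limma adjusted p = 0.00644). The cyst cell genes zfh1 (0.72 ± 0.34, adjusted p = 0.106) and eya (0.30 ± 0.26, adjusted p = 0.367) did not pass. Without hybrid array 2, on which zfh1 was lowest, it passed, with a difference of 1.12 (adjusted p = 0.0116), and it also passed with array weights and with 1 row per gene.

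The piRNA pathway silences transposons in the germline. Of 21 genes tested 9 fell and 2 rose, against 23 and 20.8 percent over all genes, and the median was -0.09. The Tudor domain gene papi read -1.51, -1.04 and -1.81 in the hybrid and 2.32, 2.22 and 1.67 in melanogaster (-3.53 ± 0.29, limma adjusted p = 7.21e-07), with no overlap. The differences of vret (-2.03 ± 0.26), Hen1, which methylates piRNAs (-1.89 ± 0.31), and krimp (-1.86 ± 0.33) were of a middle size. The Argonaute gene aub had -1.12 ± 0.32 and passed with all 6 arrays (adjusted p = 0.0136) but not without hybrid array 1 (0.0653), hybrid array 3 (0.0507) or melanogaster array 1 (0.0571). The Argonaute gene of nuclear silencing, piwi, did not pass (0.48 ± 0.26, limma adjusted p = 0.149), though it did with array weights.

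The other falls of the pathway were smaller, in mael (-1.10 ± 0.26), qin (-0.98 ± 0.28), Gasz (-0.75 ± 0.25) and mino (-0.68 ± 0.25). Of these, qin did not pass without hybrid array 1 (limma adjusted p = 0.0651) or melanogaster array 2 (0.0575). Gasz did not pass without hybrid array 2 (0.069) or 3 (0.097) or melanogaster array 1 (0.0843) or 2 (0.0766), nor mino without hybrid array 1 (0.136) or 3 (0.0862) or melanogaster array 1 (0.168) or 2 (0.0811). The 2 that rose were tapas (0.75 ± 0.25), whose spot pairs differed in size (1.22 and 0.28), and nxf2 (0.82 ± 0.29). Without hybrid array 2 or 3 or melanogaster array 1 or 2, tapas did not pass (adjusted p of 0.0538, 0.108, 0.0905 and 0.131), and nxf2 passed only with all arrays or without melanogaster array 1 (0.0535 to 0.137 without any other). The remaining 9 genes, tud, Nbr, tej, BoYb, zuc, del, Panx, shu and Hel25E, had differences of -0.46 to 0.46 and did not pass. Of these, Hel25E passed with the arrays scaled to a common spread and with quantile normalization.

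Most testis copies of proteasome subunits fell. Of 8 testis copies 7 fell, with a median of -2.54. Of 21 standard subunits 8 fell and 1 rose, against 23 and 20.8 percent over all genes, with a median of -0.13. That median moved to -0.54 without melanogaster array 3, -0.47 without melanogaster array 2 and -0.49 without hybrid array 2. It was -0.20 without hybrid array 3 and -0.04 without hybrid array 1. The difference between copies and standard subunits was not tested. The testis copy Prosbeta5R1 read -1.44, -1.18 and -1.52 in the hybrid and 3.05, 2.96 and 3.22 in melanogaster, a 21.9-fold difference (-4.46 ± 0.25, limma adjusted p = 2.72e-08). Prosbeta4R2 (-5.14 ± 0.39) and the ATPase copy Rpt3R (-3.38 ± 0.26) fell as well. Prosalpha4T1 alone of these copies did not pass, with levels of -0.37, -0.20 and -0.42 against 0.18, 0.23 and 0.45 (adjusted p = 0.057). Among the standard subunits, Rpn11, the deubiquitinase of the lid, fell by 1.85, and Rpt2, an ATPase of the base, rose by 2.02. Rpt2 had no value on melanogaster array 1, and without melanogaster array 2 or 3 it could not be tested. Rpn5 read 0.43, 1.19 and 1.02 in the hybrid, 2.56, 2.54 and 2.76 in melanogaster and 0.86, 1.02 and 0.91 in simulans, so the hybrid was near the mothers' species.

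Of 9 testis paralogs of respiratory chain subunits 7 fell and 0 rose, with a median of -3.17. Of 32 standard subunits 12 fell and 4 rose, against 23 and 20.8 percent over all genes, with a median of -0.43. That median was -0.21 without melanogaster array 1, -0.24 without melanogaster array 2 and -0.71 without melanogaster array 3. Here too the difference between paralogs and standard subunits was not tested. COX7AL, a paralog of a cytochrome oxidase subunit, read -3.29, -1.98 and -2.57 in the hybrid and 2.76, 2.78 and 3.02 in melanogaster (-5.47 ± 0.32, limma adjusted p = 4.51e-08). The standard gene COX7A moved the other way by a small amount, from -0.39, -0.49 and -0.09 to 0.50, 0.55 and 0.27 (0.76 ± 0.25). COX6CL (-4.92 ± 0.28), ATPsynGL (-3.94 ± 0.37) and ND-51L2 (-3.27 ± 0.24) fell, while the standard complex I gene ND-51 rose by 1.15. Of 16 standard complex I subunits 8 fell and 1 rose, with ND-B22 lowest (-3.14 ± 0.33). Without hybrid array 2, 2 of the 32 rose in place of 4. ND-24L, from 1.75, 1.68 and 1.26 to 0.53, 2.09 and 1.37, and ATPsynbetaL did not pass (adjusted p = 0.615 and 0.988).

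**Figure D4:**
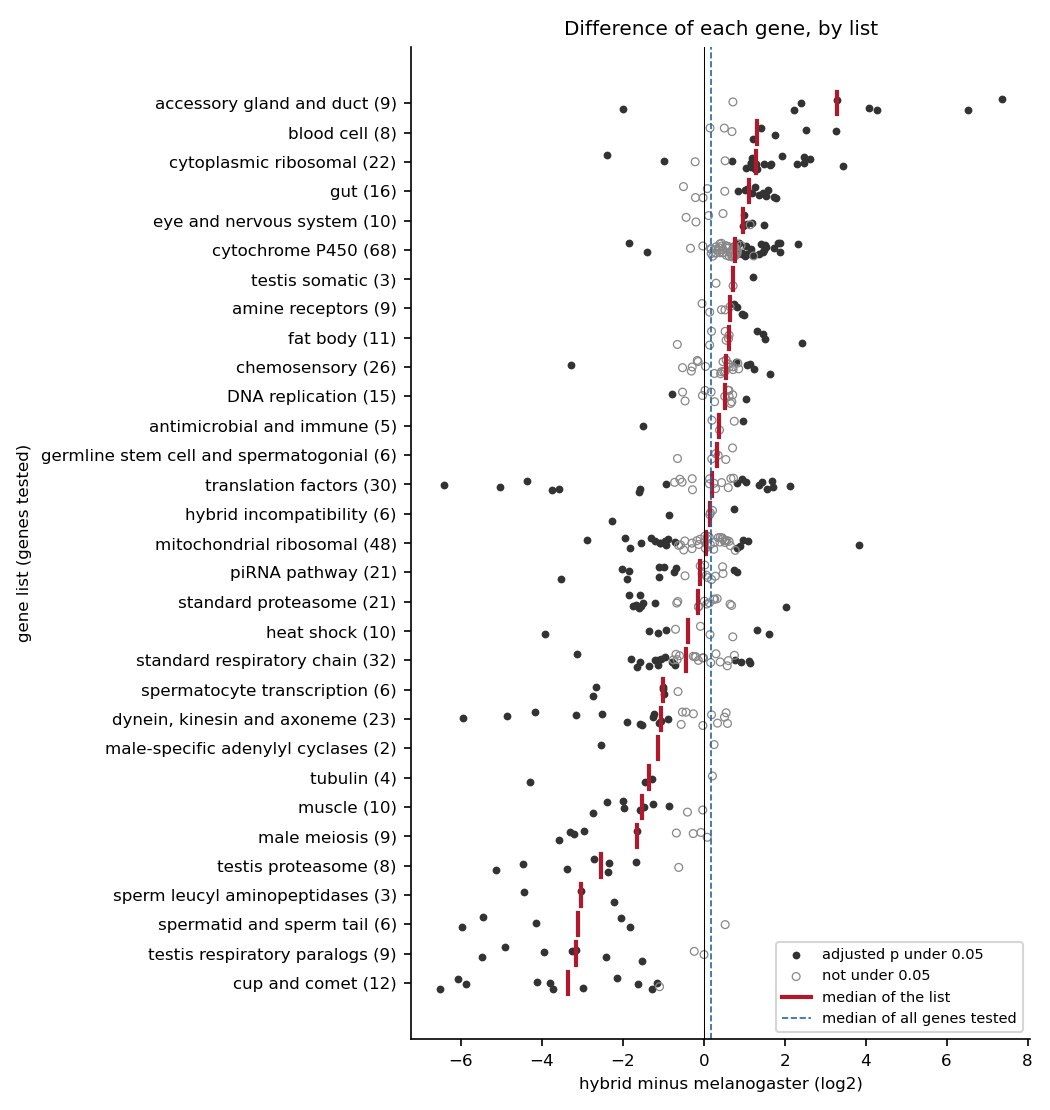
Log2 difference between hybrid and melanogaster testes (horizontal) of every tested gene of 31 lists (vertical, number of genes tested in brackets); filled points passed an adjusted p of 0.05, red bars are list medians and the dashed line is the median of all genes, 0.19. List medians run from -3.35 for cup and comet genes to 3.29 for accessory gland and duct genes.

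Of 30 translation factor genes tested 8 fell and 9 rose, near the 23 and 20.8 percent over all genes, and the median of 0.20 was near the 0.19 over all genes. The 5 largest falls were in gene copies. The cap-binding paralog gene eIF4E5 read -2.90, -2.49 and -2.81 in the hybrid and 3.26, 3.36 and 4.43 in melanogaster (-6.42 ± 0.33, limma adjusted p = 1.59e-08), an 85.5-fold difference. The paralogs eIF4E3 (-5.04 ± 0.27), eIF3d2 (-4.36 ± 0.32), eIF4H2 (-3.76 ± 0.25) and eIF4G2 (-3.57 ± 0.31), the last needed for spermatocytes to enter meiosis, fell as well. The general factor genes eIF6 (-1.59 ± 0.27), eIF2A (-1.57 ± 0.24) and eIF4B (-0.94 ± 0.28) fell by less. Of 10 genes of eIF3, the scaffold that brings the ribosome to the messenger, 6 rose and 1 fell. Those that rose were eIF3a, eIF3b, eIF3c, eIF3f1, eIF3g1 and eIF3i, by 1.37 to 2.12. The levels of eIF3c were 0.87, 1.24 and 0.93 in the hybrid and -0.87, -0.94 and -0.23 in melanogaster, without overlap, while eIF3i read 3.04, 0.27 and 2.15 in the hybrid and overlapped with 0.37, 0.50 and -0.55.

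**Figure D5:**
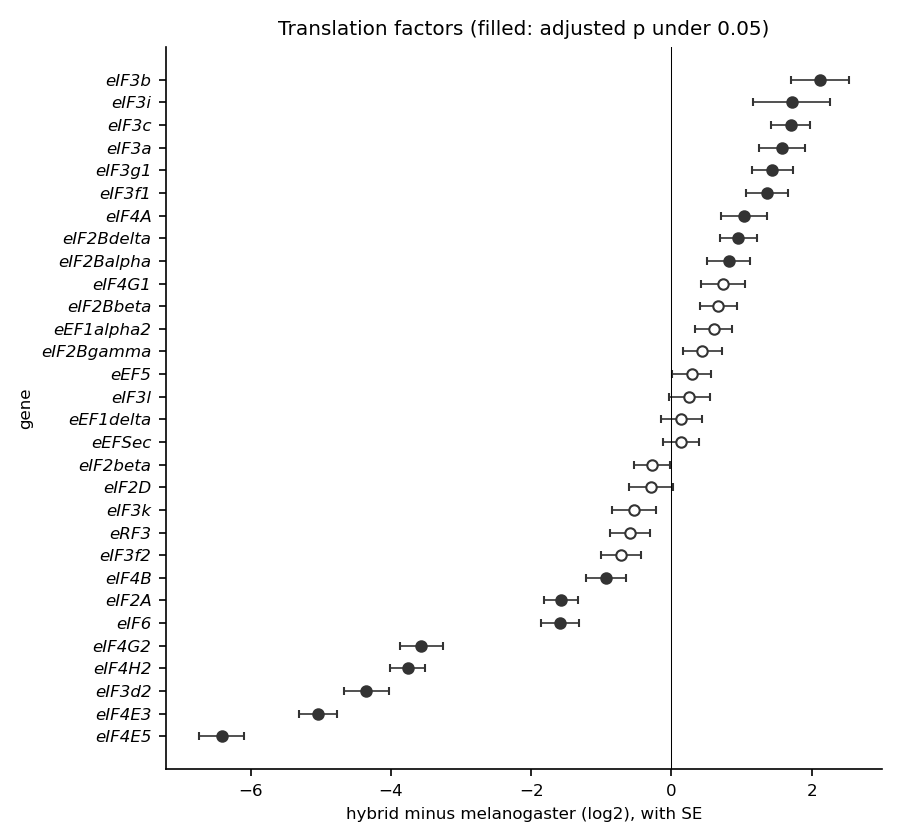
Log2 difference between hybrid and melanogaster testes (horizontal, with SE) of the 30 translation factor genes tested (vertical); filled points passed an adjusted p of 0.05. The lowest 5, from -6.42 to -3.57, are eIF4E5, eIF4E3, eIF3d2, eIF4H2 and eIF4G2, and 6 eIF3 genes are at the upper end.

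Cytoplasmic ribosomal protein genes were higher in the hybrid: 18 of 22 rose and 2 fell, with a median of 1.28. RpL17 read 1.85, 2.07 and 1.68 in the hybrid and -1.26, -1.28 and -2.17 in melanogaster, a 10.8-fold difference (3.44 ± 0.30, limma adjusted p = 1.13e-06). RpL34a (2.62 ± 0.29), RpLP0 of the ribosomal stalk (2.48 ± 0.28) and RpL28 (2.30 ± 0.29) also had groups without overlap. Those that fell were gene copies, RpS19b (-2.39 ± 0.26) and RpS10a (-0.99 ± 0.27), though the copy RpS5b rose by 1.27. RpS19b read -1.32, -0.90 and -0.75 in the hybrid, 1.51, 1.25 and 1.46 in melanogaster and 0.58, 0.60 and 0.47 in simulans.

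Ribosomal proteins of mitochondria showed no such common direction. Of 48 tested, 12 fell and 5 rose, against 23 and 20.8 percent over all genes, with a median of 0.06. Without melanogaster array 1, 6 fell and 3 rose, and without melanogaster array 3, 9 rose. The lowest was mRpS18B (-2.88 ± 0.30). The highest, mRpS34, read -0.86, -0.11 and 0.23 in the hybrid, -3.80, -3.75 and -4.72 in melanogaster and -3.73, -3.76 and -4.07 in simulans (3.85 ± 0.35, limma adjusted p = 1.6e-06). Of 15 genes of DNA replication 1 fell and 1 rose, against the same shares over all genes, with a median of 0.52. The gene that rose, Psf2, did not pass when any 1 array other than melanogaster array 3 was left out, and the higher count came to 6 without that array. The gene that fell, PolE2, did not pass without hybrid array 1 or 2 or melanogaster array 1 or 2.

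Of 10 heat shock genes 4 fell and 2 rose, against 23 and 20.8 percent over all genes. Hsp60C, a mitochondrial chaperone needed for spermatogenesis, read -3.60, -3.51 and -3.73 in the hybrid and 0.07, 0.02 and 0.81 in melanogaster (-3.91 ± 0.28, limma adjusted p = 2.12e-07). Its groups stood far apart. Hsf, the factor that turns on heat shock genes, rose by 1.60 and Hsp68 by 1.30. With the arrays scaled to a common spread Hsp68 came to 0.21 and did not pass, nor did it with the spread of all 22 arrays. The lower count was 2 without hybrid array 1 and 1 without hybrid array 3.

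At the upper end of the whole comparison stood genes of the accessory gland and duct, which make the seminal fluid. Of 9 tested 7 rose and 1 fell, with a median of 3.29. Acp53C14a, a seminal fluid protein gene, read 1.61, 4.65 and 4.29 in the hybrid, -3.76, -3.79 and -4.03 in melanogaster and -3.65, -3.45 and -3.40 in simulans. The hybrid arrays differed among themselves more than those of either species, and all lay above them (7.37 ± 0.59, limma adjusted p = 5.51e-07), a 166-fold higher ratio. The related gene Acp53Ea read 2.0, 3.24 and 2.34 against -3.72, -3.71 and -4.56 (6.52 ± 0.35, 91.8-fold).

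Other seminal genes reached lower levels. Spn38F, a serpin, rose by 4.27 on the log2 scale, Acp36DE, which acts in sperm storage, by 4.08, intr by 3.29, Gld, a glucose dehydrogenase of the ejaculatory duct, by 2.41 and Acp32CD by 2.23. Acp36DE read -0.90, -0.43 and -0.72 in the hybrid and -4.83, -4.10 and -5.35 in melanogaster, so it was below the array median in both. CG9997, a seminal protease homolog, was the gene of the list that fell (-2.0 ± 0.37), from 1.17, 1.45 and 1.0 to -0.70, 0.01 and -1.68. The gland's transcription factor gene prd did not pass (0.72 ± 0.28, adjusted p = 0.0516). The median level of the 9 genes was 0.48 to 0.75 on the hybrid arrays and -1.77 to -1.30 on the melanogaster arrays, and the labels name testes without accessory glands in both. The part of accessory gland RNA in any result here was not tested.

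Of the other high genes, Nacalpha, a subunit of the complex that meets new peptides at the ribosome, read 3.43, 3.79 and 4.30 in the hybrid and -1.23, -1.12 and -2.84 in melanogaster (5.57 ± 0.42, limma adjusted p = 3.06e-07). Its simulans levels were 0.51, 0.65 and -0.69, between the groups. CG4250 read 4.45, 4.92 and 5.16 in the hybrid and -0.64, -0.79 and 0.06 in melanogaster (5.30 ± 0.30, 39.4-fold). BG642312 (5.40 ± 0.29), CG15096 (5.33 ± 0.29), CG16926 (5.05 ± 0.26), CG5162 (4.96 ± 0.30), Acsx3, an acyl-CoA synthetase (4.66 ± 0.31), CG32199 (4.63 ± 0.42), CG18234 (4.57 ± 0.31) and NtR (4.45 ± 0.27) complete the 12 highest. The rule that picked the 12 required no overlap with the melanogaster arrays. All 12 also lay above every simulans array on each of the hybrid arrays. In CG16926, CG5162 and CG18234 the melanogaster levels were -1.91 or lower and the hybrid levels 0.27 to 2.23.

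Blood cell genes were higher in part: of 8 tested 5 rose, with a median of 1.31. PPO2, a melanin-forming enzyme of crystal cells, read 4.80, 4.64 and 4.73 in the hybrid and 1.09, 1.39 and 1.92 in melanogaster, without overlap (3.26 ± 0.28, 9.55-fold, limma adjusted p = 8.79e-07). The scavenger receptor gene crq rose by 2.54, PPO3 by 1.77, the extracellular peroxidase gene Pxn by 1.41 and Hml, a clotting protein gene of plasmatocytes, by 1.22. The phagocytic receptor genes NimC1 (0.15 ± 0.24) and eater (0.70 ± 0.38) and the lamellocyte gene atilla (0.51 ± 0.27) did not pass. The median level of the list was 0.68 to 1.11 in the hybrid and -0.36 to -0.31 in melanogaster. Of 5 immune genes 1 fell and 1 rose, against 23 and 20.8 percent over all genes. The peptidoglycan sensor gene PGRP-LE fell by 1.51 and the NF-kappaB gene Dif rose by 0.96. Dif did not pass without hybrid array 2 (0.66, adjusted p = 0.0754), without centring, with scaled arrays or with the spread of more arrays.

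Muscle genes went the other way, with 8 of 10 lower, 0 higher and a median of -1.53, which was -2.89 with the arrays scaled to a common spread. The actin gene Act79B read -5.48, -4.60 and -4.84 in the hybrid and -2.15, -2.20 and -2.39 in melanogaster (-2.73 ± 0.28, 6.62-fold, limma adjusted p = 5.37e-06). All 3 actin and all 3 troponin C genes tested fell, while Mlc2 (-0.40 ± 0.33) and Tm2 (-0.03 ± 0.41) did not pass. The list's median level was -3.50 to -3.41 in the hybrid and -2.0 to -1.54 in melanogaster, far below the whole male in both. The testis wall also holds muscle. The part of these genes in the falls of germline genes was not tested.

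Gut genes were low in both groups, with a median level of -2.39 to -1.53 in the hybrid and -3.10 to -2.96 in melanogaster. Of 16 tested 11 were higher in the hybrid, by 0.85 to 1.78, with a median of 1.12. With the arrays scaled to a common spread the median was 0.05, with 2 genes higher and 3 lower. Jon99Fii, a digestive protease, read -5.18, -4.83 and -5.34 in the hybrid and -4.56, -5.11 and -5.65 in melanogaster, among the lowest levels measured. The eye gene Arr2, an arrestin of photoreceptors, was similarly low (-5.36, -5.29 and -6.05 against -5.10, -5.50 and -6.45) and did not differ by the test (adjusted p = 0.805). Of 10 eye and nervous system genes 5 rose and 0 fell, among them the channel genes trpl (1.48 ± 0.25) and trp (0.98 ± 0.27), the last not without melanogaster array 1 (adjusted p = 0.0639).

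In several families of tissue-restricted genes, melanogaster array 3 was nearer in level to the hybrid arrays than melanogaster arrays 1 and 2 were. Of 68 cytochrome P450 genes, enzymes of detoxification and hormone metabolism, 26 rose and 2 fell, with a median of 0.76. The median level of the family was -0.15 to -0.01 on the hybrid arrays, -0.99 and -0.98 on melanogaster arrays 1 and 2, and -0.18 on array 3. Without melanogaster array 1, 2 or 3, the number that rose was 15, 16 and 48. The 4 fat body genes that rose of 11 tested became 7 without array 3, and the 5 chemosensory genes of 26 became 14. Over all genes 1411 rose (20.8 percent), and this number moved the same way. It was 985 without melanogaster array 1, 1026 without melanogaster array 2 and 1903 without melanogaster array 3. Of 9 amine receptor genes 4 rose, and 2 without melanogaster array 1, melanogaster array 2 or hybrid array 3.

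Groups did not overlap in 32 of 68 P450, 5 of 11 fat body and 10 of 26 chemosensory genes, against 53.6 percent over all genes. Some of these genes are given here. Cyp6d5 read 1.75, 2.56 and 1.69 in the hybrid and -0.05, 0.18 and 0.40 in melanogaster (1.82 ± 0.30, limma adjusted p = 0.00027). FASN1, the fatty acid synthase of fat body, read 0.04, 0.76 and 0.69 against -1.80, -1.56 and -2.45 (2.43 ± 0.31). Cyp312a1 fell, from 1.95, 2.12 and 2.23 in melanogaster to -0.02, 0.58 and 0.22 in the hybrid (-1.84 ± 0.26). Obp44a, an odorant-binding protein gene, fell by 3.27, with -2.78, -2.91 and -3.12 in the hybrid against 0.50, 0.07 and 0.45.

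Genes known from hybrid lethality or sterility between these species were few on the array. Of 6 tested 2 fell and 1 rose, against 23 and 20.8 percent over all genes. The GST-containing gene gfzf, an autosomal partner in the lethality of hybrid sons of the reverse cross, read 0.38, 0.49 and 0.58 in the hybrid, 2.72, 2.79 and 2.71 in melanogaster and 0.88, 1.01 and 1.18 in simulans. The hybrid lay below melanogaster without overlap (-2.26 ± 0.24, limma adjusted p = 6.66e-06), and its difference from simulans was -0.54 ± 0.20 (limma adjusted p = 0.0617). Lhr, whose product binds heterochromatin with that of Hmr, read 0.23, 0.04 and -0.72 in the hybrid and 0.72, 0.87 and 0.54 in melanogaster (-0.86 ± 0.29, adjusted p = 0.0317). It did not pass without hybrid array 3 (adjusted p = 0.134), melanogaster array 1 (0.0814) or melanogaster array 2 (0.101). Hmr, the X-linked partner, read 0.44, 0.03 and 0.00 against -0.51, -0.50 and -0.78 (0.75 ± 0.26, adjusted p = 0.0304). It did not pass without hybrid array 1 (0.107), melanogaster array 1 (0.0774) or melanogaster array 2 (0.072). OdsH, a homeobox gene of hybrid sterility in the simulans group (0.16 ± 0.27), Nup160 of the nuclear pore (0.15 ± 0.39) and agt (0.22 ± 0.40) did not pass.

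Hybrid and simulans testes, compared over the same hybrid arrays and 3 simulans arrays, differed in 2444 of 6791 genes (36 percent), 1241 lower and 1203 higher. This comparison shares its hybrid arrays with the one above, so the values are only set side by side. Simulans arrays 1 and 2 differed by only 1.11 times their spot noise and may also be repeat runs. The gene dj differed by -5.17 ± 0.34 from simulans and -5.44 ± 0.29 from melanogaster, and soti by -5.31 ± 0.29 and -5.88 ± 0.29. Acp53C14a differed by 7.01 ± 0.62 from simulans and 7.37 ± 0.59 from melanogaster, and RpL17 by 3.85 ± 0.20 and 3.44 ± 0.30. In rux the differences were -1.65 ± 0.31 and -3.30 ± 0.26, so that simulans lay between the hybrid and melanogaster. The P450 gene Cyp6a23 differed by 1.12 ± 0.23 and 2.34 ± 0.28, but its spot pairs disagreed in size against melanogaster (0.60, 2.57 and 3.58), and with 1 row per gene its difference was 0.45 and did not pass.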

How the data were processed

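Expression was measured on 2-colour spotted arrays, with testis RNA in Cy5 and whole-male RNA in Cy3 and no dye swap, per the labels. The deposited table holds the authors' log2 ratios. The log base was inferred from the values and the direction from the titles. The normalization that the authors applied was not given in the sources used here. Of 27648 rows, 15116 carried 1 gene symbol in the platform's probe table. Values were centred, array by array, on the median of those rows, and rows of a gene were averaged. The 6 arrays were fitted with limma 3.58.1 (lmFit and eBayes, group means) in R 4.3.3, with Benjamini-Hochberg adjustment over 6781 genes. The fit was tested on simulated data with few genes changed, where it recovered most of the larger changes and missed the smaller ones. Far more genes were called in the real data, so that recovery does not measure the sensitivity of this comparison. A gene that did not pass is not shown to be alike in both groups. Errors are SE of a difference. All adjusted p-values are limma's.

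The 32 gene lists (31 with a tested gene, 0 for the Y-linked one), the rule for named genes and the choice of arrays were made with earlier results of these data known. The genes named were the 12 lowest and 12 highest called genes without overlap, up to 3 members of each list by p, and all tested members of the stem cell, piRNA, testis somatic and hybrid incompatibility lists. Other list members were chosen after their values were seen, and so was the division of lists into subunits and gene copies. The labels do not say that replicate numbers pair the arrays. Same-numbered deviations from the group means correlated at -0.06, 0.08 and 0.05, and those of different numbers at -0.11 to 0.09. With so few arrays this cannot decide whether the numbers pair them. The planned comparison of chromosome arms was not run, for lack of gene positions among the tables used.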

Additional observations from a re-analysis of the deposited data

Results flagged for a closer look

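Array rows outside the named genes held differences as well. Of 11126 tested rows that are not listed in the probe table or carry several symbols, 1382 (12.4 percent) were lower in hybrid than in melanogaster testes and 1792 (16.1 percent) higher at an adjusted p under 0.05 in limma. They were looked at because the comparison above does not use them. The lowest differed by -7.17 ± 0.38 and the highest by 7.64 ± 0.32 (SE, n = 3 arrays a group). These rows are unnamed here, so what they measure is not known.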

How the results depend on the processing

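Under 22 alternatives the 2971 calls ranged from 1464 to 4345, and calls in the opposite direction appeared only with 1 row per gene, for 3 genes. With the spread taken from all 22 arrays, 1464 genes were called, 990 lower and 474 higher; spermatocyte transcription then had 2 lower, dyneins, kinesins and axoneme 8, piRNA 5 and muscle 3, and higher were 7 ribosomal, 1 gut and 7 P450 genes. The genes called higher numbered 789 without centring (1599 lower), 933 with the spread of the 19 arrays without sechellia, 2362 with array weights (1983 lower) and 929 with a 2-fold minimum. Scaled arrays left 2 gut genes higher. P450 genes called higher numbered 15 without centring, 15 with scaled arrays, 17 with 19 arrays, 54 with array weights, 17 with the 2-fold minimum and 15 with melanogaster arrays 1 and 2 averaged. Leaving out each array in turn gave 2269 to 3683 calls, 1284 to 1780 lower and 985 to 1903 higher, and 15 to 48 P450 genes. The cause of these moves was not tested. With the replicate number as a block 3045 genes were called, 1573 lower and 1472 higher; bam then passed and mino did not. The labels do not say that the numbers pair the arrays, and no result above rests on the block.

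Of 137 named genes, 113 were called, 79 of them under every alternative, and 15 of the 24 others were called under none. The median of the muscle list ran from -2.89 to -1.30, of standard proteasome subunits from -0.54 to -0.04, of the standard respiratory chain from -0.81 to -0.21 and of DNA replication from 0.31 to 0.59. The medians of the stem cell, hybrid incompatibility, mitochondrial ribosomal and translation factor lists crossed 0 in some alternatives (-0.08, over 3 genes only, to 0.50, -0.06 to 0.44, -0.14 to 0.12 and -0.00 to 0.32). The medians of the other 27 lists kept their sign. Of 682 genes with several spot pairs, 10 had pairs past 1 in opposite directions, 2 of them called.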
